A study of Mus musculus with 4 samples.

Results

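A group of 10 immediate early genes was followed in mouse oocytes after a hydrostatic pressure treatment: the AP-1 transcription factor genes Fos, Fosb, Jun, Junb and Jund, the related basic leucine zipper genes Atf3 and Maff, the zinc finger gene Egr1, and Ier2 and Ier3. The genes were taken by name from all spots other than controls, whatever their brightness. The array design names 9 of the 10 by these symbols, and Jund, which it lists as Jund1, was matched by its RefSeq accession. They are 10 of 27666 gene names on the array. The 10 genes had 12 probes of 41174, and 30 of 43379 spots on each array, because the probes of Fos and Jun are each printed 10 times. Treated oocytes were kept for 60 min at 20 MPa and 37 °C, and control oocytes went through the same handling without the pressure. Each of 4 two-colour arrays carried 1 treated pool (Cy5, red) and 1 control pool (Cy3, green), each of 50 oocytes, and the series describes the replicates as biological. The strain, the age of the mice and the meiotic stage of the oocytes are not given in the sources used here. Because the labels give the same dyes for all 4 arrays, treatment and dye cannot be told apart, and in pooled oocytes fewer RNA-bearing cells and less RNA per cell cannot be told apart either.

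Immediate early genes are transcribed within minutes of a stimulus without new protein synthesis, through kinase cascades that act on transcription factors already present in the cell, such as serum response factor and CREB. Their products are mostly transcription factors: Fos proteins pair with Jun proteins to form AP-1, which binds DNA and controls a later wave of genes. Their mRNAs are short-lived, in part through AU-rich stretches near the 3′ end. Growing oocytes store mRNA, and fully grown oocytes transcribe little until the embryo's genome is activated.

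All 12 probes are 60 bases long, and 30 bases of the Fos, Jun and Maff probes are shown first, because these had no array with both channels well above background and at least 2 with 1, with a run in capitals where a motif was found. Capitals mark AATAAA, the poly(A) signal, in the Maff probe and ATTTA, the core of AU-rich elements, in the Jun probe, and the stretch of the Fos probe holds neither.
Fos: gtagatagaaatcaatagctatatccatgt
Jun: aatcataggaaagATTTAgtaattagctgt
Maff: gtagactttctgAATAAAgtcaagttctct
The probes lie at chr12:83478431-83478490 (Fos, plus strand), chr4:94441779-94441838 (Jun, minus strand) and chr15:79441964-79442023 (Maff, plus strand) of mouse build mm7, as the array files give them. Searched along the probe strand only, AATAAA was in 1 of the 12 member probes, that of Maff, and in 4.78% of all probes. ATTTA was in 3 of the 12, those of Egr1, Ier3 and Jun, and in 9.16% of all probes. Junb had a pair of overlapping probes on the minus strand, chr8:83563097-83563156 and chr8:83563059-83563118, so they are not independent measurements. The bases that both hold are shown because the probes gave different ratios.
Junb, shared by both probes: ttcgtgtctaaagtctatttta
Probes of different members shared runs of at most 10 bases.

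Replicate 1 stood apart from the other arrays. The ratio of net signals at the 99th percentile, treated over control channel, was 2.56 there and 0.25 to 0.39 on replicates 2 to 4. Across the tested genes, which share each array, Pearson's r of its log2 ratios was -0.19 with replicate 2, -0.19 with replicate 3 and -0.23 with replicate 4, and the other pairs of arrays gave 0.34, 0.11 and 0.29. Whether the dyes of replicate 1 ran opposite to its label was not settled by these values, and its labelled direction was kept. Values without replicate 1 are given for every tested member, and a value with the sign of replicate 1 turned is what such an exchange would give. Of 12 oocyte markers on the array 8 were tested, Zp3, Gdf9 and Bmp15 among them, each well above background on all 4 arrays in both channels. Zp2 and Nlrp5 were on the array and not tested. Of 17 cumulus and granulosa cell markers 5 were tested, and 8 had no probe well above background on any array, Fshr, Amh, Foxl2 and Kitl among these. Of the tested ones, 1 mean was above 0 and 4 below, and Tnfaip6, Cyp19a1 and Nr5a2 were each detected on at least 3 arrays in each channel. The summed net intensity of that list ran from 665 to 2304 in treated and from 977 to 5700 in control pools. Of 8 blood and immune markers on the array 2 were tested (1 above 0, 1 below), and of 8 endothelial and stromal markers 2 (1 above 0, 1 below). The part of such cells in the values below was not tested.

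Most members were dim, though they were detected more often than the array's probes at large. A spot is called well above background by the scanner software, per channel, and a probe here when a share of at least 0.5 of its unflagged spots is. In the 12 member probes on 4 arrays, 18 of 48 pairs of probe and array (37.5%) had neither channel well above background, against 74.9% over all probes. In the 30 pairs with a detected channel, 17 had only 1 channel detected, the treated one in 8 and the control one in 9. Over all probes that share was 36.5%, against 56.7% for the members, whose pairs share arrays and probes. Over all probes, 5116 pairs had only the treated channel detected and 9984 only the control one. On replicate 1 these counts were 3265 and 630. On replicates 2 to 4 they were 643 and 2830, 557 and 3394, and 651 and 3130. Which channel of a member was detected thus also depends on the array. Only Jund and 1 probe of Junb were well above background in both channels on all 4 arrays, which held for 10.4% of all probes. The treated channel was detected on all 4 arrays for 3 of the 12 member probes (Jund and both of Junb), against 11.1% of all, and the control channel for 3 (Jund, 1 of Junb and 1 of Ier2), against 14.3%. Atf3, Ier3 and 1 probe of Ier2 were not well above background on any array, as were 65.1% of all probes. Of the member probes 7, from 6 genes (Fos, Junb, Jund, Maff, Egr1 and Ier2), passed the detection filter (at least 3 arrays in 1 channel), against 19.7% of all probes. The limma fit took 1 probe of each of these genes.

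**Figure D1:**
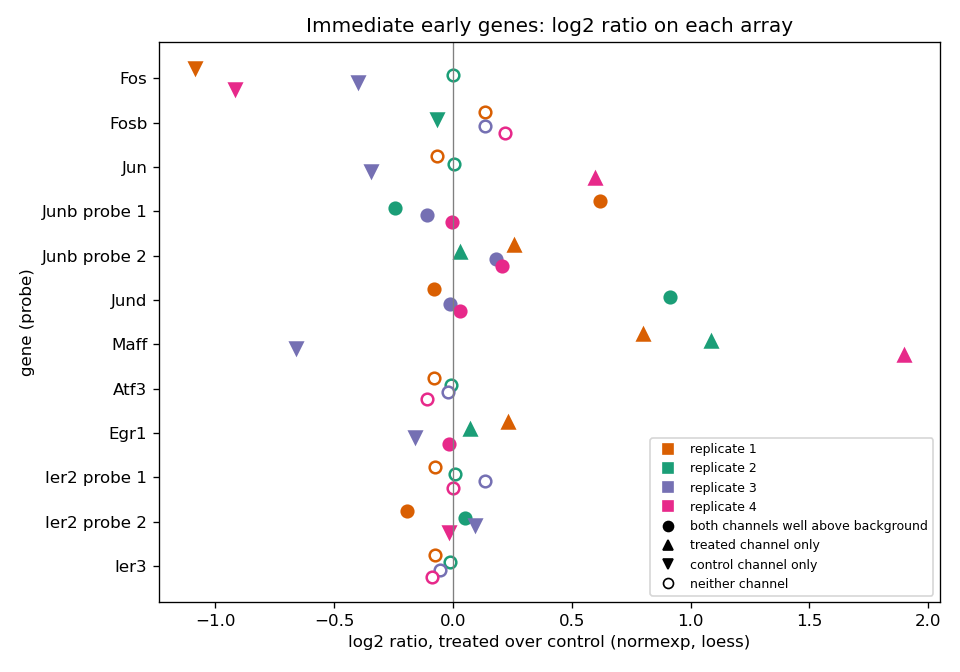
Log2 ratio of treated over control on each array (x axis) for the 12 probes of the 10 genes (y axis), 1 point per array, coloured by replicate. The symbol shows which channel was well above background, and the Fos points with a detected control channel lie at -1.09 to -0.40, whereas 3 of 4 Maff points lie above 0.

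Fos, which binds DNA as AP-1 only when paired with a Jun protein, had unnormalized signal mainly in control pools. Its mean spot intensity in control pools was 91.1, 46.5, 95.2 and 181.5 on replicates 1 to 4, and in treated pools 46.4, 42.2, 37.6 and 47.5. Part of that gap is channel brightness: the array-wide ratio of net signals, treated over control, was 0.25 on replicate 3 and 0.30 on replicate 4. The 95th percentile of 153 negative control spots lay at 40.9 to 50.0 in the control channel and 40.2 to 47.8 in the treated channel. Control pools were thus above the negative controls on replicates 1, 3 and 4 and not on replicate 2. Treated pools stayed nearer that level. They were above their own array's percentile on replicate 1 (46.4 against 42.0) and replicate 4 (47.5 against 45.3), and below it on replicates 2 and 3. The log2 ratios were -1.09, -5.0e-04, -0.40 and -0.92, a mean of -0.60 ± 0.50 (SD, n = 4). After background correction, dim probes lay higher on replicate 2. Atf3, not detected on any array, had a mean log2 intensity of 7.30 on replicate 2 and 5.77 to 5.81 on the others. Ratios of dim probes on replicate 2 are thus drawn harder toward 0, and means and SDs over arrays mix unlike scales. On replicate 1, 9 of 9 unflagged spots were well above background in the control channel and 4 of 9 in the treated channel. On replicates 3 and 4 these counts were 10 of 10 and 0 of 10. If the dyes of replicate 1 were exchanged, its counts would change channels. By the means over arrays the Fos signal in control pools was 1.499-fold a floor for the treated channel. That value leaves out the spread between arrays and is open to dye bias, so it is not a lower limit on the difference between pools. This difference did not pass (adjusted p from limma = 0.93, unadjusted p = 0.050, 95% interval -1.20 to -0.0011). Over the other settings the unadjusted p from limma ran from 0.011 to 0.87. Without replicate 1 the mean was -0.44, with the sign of replicate 1 turned it was -0.06, and with Agilent's processed signals it was -2.81. Fosb, the close relative of Fos, was well above background once, in the control pool of replicate 2, and was not tested (probe at chr7:16985502-16985561, minus strand). Its log2 ratios were 0.14, -0.07, 0.14 and 0.22.

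**Figure D2:**
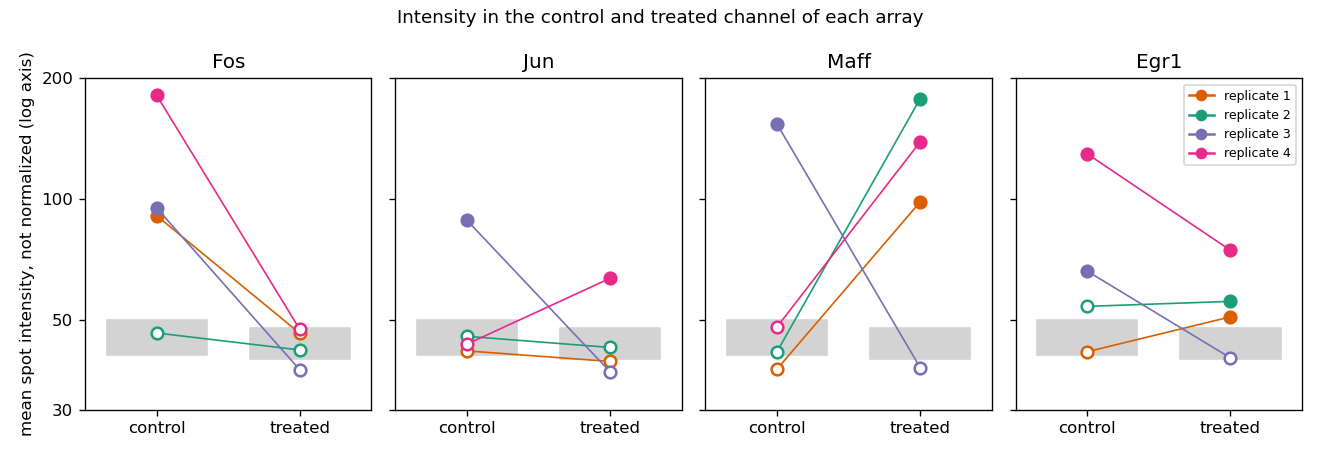
Mean spot intensity on a log axis, not normalized, in the control and treated channels for Fos, Jun, Maff and Egr1, with a line joining the channels of each array. Filled points are well above background, grey bands span the 95th percentiles of negative control spots over the 4 arrays, and for Fos, Jun and Maff no array has both channels filled.

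Jun, the founding Jun protein and a target of the stress kinase JNK, was detected on 2 arrays and in opposite channels. In control pools its intensity was 42.0, 45.6, 88.8 and 43.6, and in treated pools 39.5, 42.8, 37.2 and 63.6. All 10 spots of the control pool of replicate 3 and all 8 unflagged spots of the treated pool of replicate 4 were well above background, and none in the opposite channels. The spots' log2 ratios ran from -0.57 to -0.08 on replicate 3 and from 0.43 to 0.70 on replicate 4, so these arrays did not overlap. The ratios were -0.07, 0.01, -0.34 and 0.60, a mean of 0.05 ± 0.40 (SD, n = 4), and Jun was too dim on the other arrays to be tested. The SD between spots on an array was 0.019 to 0.17, below the SD of 0.40 between arrays. For Fos it was 0.015 to 0.46, against 0.50 between arrays. The lowest values, 0.019 for Jun and 0.015 for Fos, are from replicate 2. Neither channel was detected there and ratios are drawn hard toward 0, so these values do not measure the precision of spots.

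**Figure D3:**
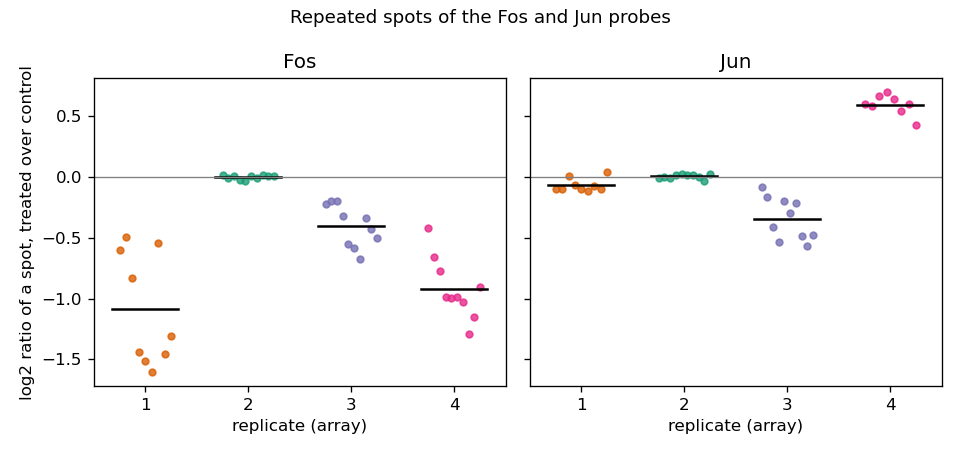
Log2 ratio of each unflagged spot (y axis) of the Fos and Jun probes, 8 to 10 spots per array, by replicate (x axis), with black bars at the array means. The Jun means lie at -0.34 on replicate 3 and 0.60 on replicate 4, and the Fos means on replicates 1, 3 and 4 all lie below 0.

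Junb and Jund, the Jun proteins often described as restraining growth, gave the brightest member spots. Jund had an intensity of 1818, 577, 329 and 465 in treated and 828, 679, 1147 and 1239 in control pools (probe at chr8:69154598-69154657, plus strand). After loess its log2 ratios were -0.08, 0.91, -0.01 and 0.03, a mean of 0.21 ± 0.47 (SD, n = 4). Replicate 2 alone was far from 0, and without it the mean was -0.02. Without replicate 1 it was 0.31. The brighter Junb probe had 986, 277, 99.3 and 327 in treated and 289, 790, 326 and 863 in control pools. Its log2 ratios were 0.62, -0.24, -0.11 and -0.01, a mean of 0.06 ± 0.38 (SD, n = 4), and -0.12 without replicate 1. The overlapping Junb probe was above 0 on all 4 arrays, at 0.26, 0.03, 0.18 and 0.21, with the treated channel well above background on 4 arrays and the control channel on 2. The 2 probes thus had opposite signs on replicates 2, 3 and 4. Neither gene passed (limma's adjusted p = 0.93 for Jund and 0.97 for Junb), and the 95% intervals were -0.37 to 0.80 and -0.46 to 0.59. With median centring, which put the median of all tested genes at -0.34, Jund was at -0.42 and Junb at -0.49.

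Maff, a small Maf protein that lacks a transactivation domain and pairs with other leucine zipper factors, had unnormalized signal mainly in treated pools. Its intensity in treated pools was 98.6, 178, 38.1 and 139, and in control pools 37.8, 41.8, 153.9 and 48.2. On replicates 1, 2 and 4 the treated pool was well above background and the control pool was not, and on replicate 3 it was the reverse. If the dyes of replicate 1 were exchanged, its detected pool would be the control one. The log2 ratios were 0.80, 1.08, -0.66 and 1.90, a mean of 0.78 ± 1.07 (SD, n = 4). Maff did not pass (limma's adjusted p = 0.93, unadjusted p = 0.12, 95% interval -0.28 to 1.84). Leaving out replicate 3 gave 1.26, with an adjusted p from limma of 0.9989 (0.63 to 0.9989 over all alternatives; unadjusted p = 0.011), and leaving out replicate 4 gave 0.41. Without replicate 1 the mean was 0.77. Processed signals put it at 3.16, median centring at 0.45 and the sign of replicate 1 turned at 0.38. Atf3, a stress-induced repressor of the ATF and CREB family (probe at chr1:190724174-190724233, minus strand), had intensities of 36.4 to 41.9 in treated and 38.8 to 44.9 in control pools, and its log2 ratios of -0.11 to -0.01 carry no detected signal.

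Egr1, a zinc finger factor induced by growth signals and stress, was detected in the treated channel on 3 arrays and in the control channel on 2. Its intensity was 51.0, 55.8, 40.3 and 74.7 in treated and 41.8, 54.2, 66.3 and 129.8 in control pools. The log2 ratios were 0.23, 0.07, -0.16 and -0.01, a mean of 0.03 ± 0.16 (SD, n = 4), and -0.03 without replicate 1. Ier2, a small nuclear protein induced with the AP-1 genes, had its tested probe at chr8:83243758-83243816, with the treated channel well above background on 2 arrays and the control channel on 4. That probe had log2 ratios of -0.19, 0.05, 0.09 and -0.02, a mean of -0.02 ± 0.13 (SD, n = 4), and 0.04 without replicate 1. The other Ier2 probe was not well above background on any array and had -0.07, 0.01, 0.14 and 0.00. Another flag of the scanner software, positive and significant signal, was set for it in both channels on all 4 arrays. Egr1 and Ier2 did not pass (limma's adjusted p = 0.98 and 0.99), with 95% intervals of -0.38 to 0.45 and -0.42 to 0.39. Ier3, an early response gene tied to cell survival (probe at chr17:33924245-33924304, plus strand), was not well above background on any array. Its intensities were 33.7 to 44.8 in treated and 38.1 to 52.7 in control pools, with log2 ratios of -0.07, -0.01, -0.05 and -0.09. The flag for positive and significant signal was set on 2 arrays in the control channel and 0 in the treated channel.

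By limma 0 of the 6 tested members passed at an adjusted p of 0.05 in either direction, and 0% of 6920 tested genes did. At an unadjusted p of 0.05, 1 of the 6 (Fos) was under the threshold, against 4.19% of tested genes. Of the 6 means 4 were above 0 and 2 below, where 47.6% of tested genes were above. Only Fos of the 6 had 1 sign on all 4 arrays, which held for 12.3% of tested genes with 4 values. Its value on replicate 2 was -5.0e-04 with neither channel well above background, and with replicate 1 turned it no longer had 1 sign. Its sign was below 0, as for 9.35% of those genes, and 0 of the 6 were above 0 on all 4 arrays, against 2.94%. The mean of 0 of the 6 differed at least 2-fold in either direction, against 2.08% of tested genes. The median log2 ratio over the 6 was 0.05, and over all tested genes -0.02. On single arrays the members' median was 0.08, 0.06, -0.14 and -0.01. The 6 tested members are those bright enough in at least 1 channel, so they do not stand for all 10.

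**Figure D4:**
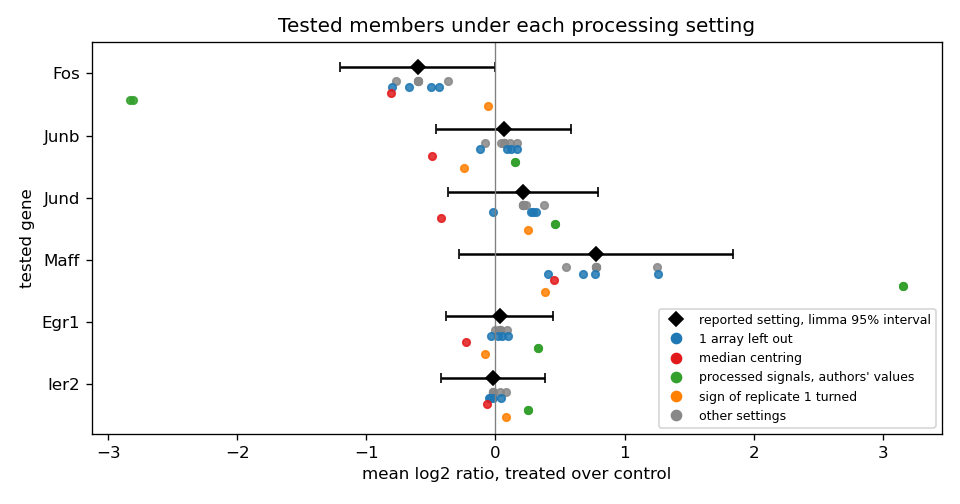
Mean log2 ratio of treated over control (x axis) for the 6 tested members (y axis): the diamond is the reported value with limma's 95% interval, and coloured points are the other settings. Fos stays below 0 and Maff above 0 in every setting drawn, at -2.83 to -0.06 and 0.38 to 3.16, and the other 4 genes have points on both sides of 0.

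Of 40 other immediate early genes 39 were on the array and 20 were tested, with 10 means above 0 and 10 below, and 0 passed in either direction by limma. Their median log2 ratio was 0.02, against -0.02 over all tested genes, of which 47.6% were above 0. Cebpd, a leucine zipper factor of the C/EBP family, had the smallest p of this list, with -0.76, -0.10, -0.43 and -0.63 on replicates 1 to 4 and a mean of -0.48 ± 0.29 (SD, n = 4; limma's adjusted p = 0.93). Cebpd was at -2.06 with processed signals and -0.10 with replicate 1 turned. Egr3, a relative of Egr1, had -0.34, -0.12, -0.24 and -0.52. As labelled, it was detected in all 4 control channels and 0 treated channels. By the means alone its signal in control pools was 1.22-fold a floor for the treated channel. That value leaves out the spread between arrays, is open to dye bias and is not a lower limit. Egr3 did not pass (limma's unadjusted p = 0.12, adjusted p = 0.93), and its 95% interval of -0.72 to 0.11 includes 0. Its mean of -0.30 became -3.02 with processed signals and -0.13 with replicate 1 turned. Both were below 0 on all 4 arrays, as were 2 of the 20 in all and 9.35% of tested genes with 4 values.

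Of 25 partners and relatives with a basic leucine zipper 9 were tested, 5 above 0 and 4 below, with a median of 0.06 and 0 passing by limma. Maf, a large Maf protein, had -1.57, 1.20, 2.20 and 2.26, so replicate 1 lay opposite to the others. Its mean of 1.02 was 1.89 without replicate 1, 1.81 with it turned and 0.25 with median centring. Atf6, the endoplasmic reticulum stress factor, had 0.37, -0.09, -0.37 and -1.88, a mean of -0.49 that was -0.03 without replicate 4 and -1.08 with processed signals.

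Of 34 upstream kinases and serum response factors 15 were tested, 4 above 0 and 11 below, with a median of -0.35. Of all tested genes 47.6% were above 0, with a median of -0.02. In this list 0 passed in either direction by limma. Map3k1, a kinase upstream of JNK, had -2.14, -0.02, -0.60 and -1.59, a mean of -1.09 ± 0.95 (SD, n = 4; limma's unadjusted p = 0.034, adjusted p = 0.93). That mean was -0.02 with replicate 1 turned, -0.64 with array weights and -2.59 with processed signals. Of the 15 genes 3 were below 0 on all 4 arrays, Map3k1 and Elk3 among them, against 9.35% of tested genes with 4 values. Srf, the serum response factor itself, had a mean of -0.23 and did not pass.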

How the data were processed

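Scanner files of the 4 arrays hold each spot's mean intensity and median local background intensity per channel, made by the authors; the submitters' processing notes name Feature Extraction 9.5.1.1. RNA was amplified from 240 pg in a two-round procedure, per the labels' protocols. Processed signals and their log10 ratio were background-subtracted and dye-normalized in that software, per the file headers, and the authors' deposited value table equals that log10 ratio to within 5.0e-10.

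The intensity values were corrected by normexp (offset 50, which draws ratios of dim spots toward 0) and then by loess in limma 3.58.1 under R 4.3.3, with control spots at weight 0. Control and outlier-flagged spots were left out and spots of a probe averaged. No spot was saturated. The 8108 probes detected in 1 channel on 3 or more arrays were kept, and each gene took its brightest, giving 6920 genes. Names were updated through a RefSeq table of GRCm38.p6, used for names only: 5050 by accession, 804 by symbol, 373 by synonym, and 693 kept the file's name. Log2 ratios were tested against 0 with lmFit and eBayes, two-sided, with Benjamini-Hochberg adjustment over all tested genes. The fit was checked on simulated data. A fold over a floor divides the bright group's mean by the floor. The floor is, on each array, the weakest detected signal, or the dim probe's own signal if stronger, after loess and Aquantile. Named genes are all 10 members, the 2 genes of smallest p in each of 3 pathway lists, and some marker genes and Elk3 and Srf, chosen after their values were seen. A gene that the rule names is not reported here. Members and lists were chosen with earlier results of these data known. Alternatives covered background, normalization, filter, probe choice, eBayes settings, array weights, the authors' values, leaving out arrays and turning replicate 1. All 4 arrays are on 1 slide with 1 scan.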

Additional observations from a re-analysis of the deposited data

Results flagged for a closer look

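Jund had a log2 ratio of 0.91 on replicate 2, far from the other 3 arrays, which lay between -0.08 and 0.03. The ratio of net signals at the 99th percentile, treated over control channel, was 2.56 on replicate 1 and 0.25 to 0.39 on the other arrays. These were 2 of 11 sets of 4 values examined, where chance gives about 5%. No cause was tested for either.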

How the results depend on the processing

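The alternative that counts a probe as detected with any of its spots was chosen after seeing the data and gave 6 members, as in the reported setting. Under every alternative run, 0 genes passed limma's test, also when 1 array was left out, with unadjusted counts from 134 to 933. Limma's lowest adjusted p was 0.93 in the reported setting, 0.17 without replicate 1 and 0.0535 with replicate 1 turned. The unadjusted counts in these settings were 290, 758 and 933. The members' median moved to 0.29 with processed signals, 0.29 with the authors' values and -0.32 with median centring, where the median of all tested genes was -0.34. Leaving out 1 array gave a median from -0.0010 to 0.11 and 3 to 5 members well above background on the 3 arrays left, 3 without replicate 1 and 3 without replicate 4. Fos, Maff and the 5 pathway genes named by rule kept their direction under all alternatives that could be run on them. The 5 pathway genes were picked for a small p from limma on the same arrays. Fos and Maff had the smallest p of the tested members, so a kept direction is no independent support. With replicate 1 turned, Map3k1 was at -0.02 and Fos at -0.06. The sign of Egr1 turned with median centring (-0.23), array weights (-0.0031), replicate 1 left out (-0.034) and replicate 1 turned (-0.083). Ier2 turned with processed signals (0.25), no background subtraction (0.081), the authors' values (0.25), array weights (0.032), replicate 1 left out (0.042) and replicate 1 turned (0.080). Junb turned with median centring (-0.49), array weights (-0.079), replicate 1 left out (-0.12) and replicate 1 turned (-0.24), and Jund with median centring (-0.42) and replicate 2 left out (-0.021). The cause was not tested. Leaving out 1 array in turn gave -0.034 to 0.097 for Egr1, -0.054 to 0.042 for Ier2, -0.12 to 0.17 for Junb and -0.021 to 0.31 for Jund. Requiring both channels on all 4 arrays left 2 members, Junb and Jund. Aquantile changes no ratio by construction. The reported test is itself paired, since each ratio compares both pools of 1 array, and the replicate numbers occur in 1 group of ratios. Signal over background limits the members: 4 of the 10 could not be tested.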

Other observations

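RefSeq promoter windows of GRCm38.p6, mostly upstream of a start site, were at hand for 8 of the 10 genes, with 10 windows in all. Egr1 and Ier2 had none, so the counts do not cover them. TGACGTCA, the cyclic AMP response element to which CREB and ATF factors bind, was in 1 of the 10 windows and in 1.79% of all 32851 windows, each searched on both strands since the motif reads the same on either. That window belongs to a start site of Maff, and the motif is in capitals in the 30 bases at chr15:79347480-79347509 (plus strand).
Maff: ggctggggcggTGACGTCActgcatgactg
TGANTCA, a pattern wider than the AP-1 site since any middle base counts, was in 0 of the 10 windows and 7.81% of all. The CArG box of serum response factor was in 0 of the 10 and 1.63% of all. The windows cover only sequence close to a start site, and sites farther upstream were not searched. A count of 0 therefore does not show that a gene lacks the site. A match describes these letters only, and the arrays do not measure binding.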
